A study of Mus musculus with 9 samples.

Results

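The genes of cholesterol synthesis, uptake and efflux were followed here in mouse cerebral cortex after experimental stroke. The set holds 31 genes, chosen by symbol, out of 52550 genes in the deposited tables. It comprises 7 enzymes of the mevalonate arm, 11 enzymes of the squalene and sterol arm, 5 regulators and 8 genes of transport, efflux, storage and turnover. Each symbol matched 1 gene, and all 31 passed the filter on low values that left 17080 genes (3 or more of the 9 libraries with a TPM of 1 or above). TPM is a transcript's share of all transcripts in a library, corrected for length and scaled to a fixed total.

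All animals were male C57BL/6N mice of 9 to 12 weeks, with 3 libraries in each of 3 groups. The control oligo and knockdown groups received locked nucleic acid antisense oligonucleotides through the lateral ventricles, either a negative control oligo (replicates 1, 2 and 3) or oligos against the enhancer RNA eRNA_06347 (replicates 2, 3 and 4). Both groups then had 1 h of middle cerebral artery occlusion (MCAO, a filament model of ischemic stroke) and 6 h of reperfusion, and the infarcted ipsilateral cortex was taken. In sham mice the neck was opened and no artery was occluded; the labels name no oligo for them, and their libraries came from earlier work of the same laboratory. Stroke, oligo injection and data set therefore cannot be told apart in any comparison with sham. The labels call the libraries replicates of a group without saying how many animals each holds, and the target RNA itself was not analysed here.

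The brain makes nearly all of its own cholesterol, because lipoproteins of the blood do not cross the blood-brain barrier. Synthesis runs from acetyl-CoA through mevalonate to farnesyl diphosphate, then through squalene and lanosterol to cholesterol. Its enzymes are transcribed under SREBP-2 (gene Srebf2), which the carrier SCAP brings to the Golgi for cleavage when sterols are low and which the INSIG proteins hold back when sterols are high. Astrocytes load cholesterol onto apolipoprotein E through ABC transporters, neurons take it up and release it from lysosomes with NPC1 and NPC2, and neurons hydroxylate the excess with CYP46A1 so that it can leave the brain.

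Sequence before the start site was taken from RefSeq (GRCm38.p6), which had a window for 25 of the 31 genes; 3 synthesis genes are shown: Hmgcs1, because its window held the sterol regulatory form searched for, and Mvd and Lss, because both were higher than sham in all MCAO libraries. Letters run 5′ to 3′ on the gene's strand and end before the gene's first base. Capitals mark matches, on either strand, to TCACNCCAC (a form of the sterol regulatory element), CCAAT (the NF-Y box) or GGGCGG (the Sp1 box). The windows are chr13:119690101-119690350 (plus strand) for Hmgcs1, chr8:122443423-122443672 (minus strand) for Mvd and chr10:76531355-76531587 (plus strand) for Lss.
Hmgcs1: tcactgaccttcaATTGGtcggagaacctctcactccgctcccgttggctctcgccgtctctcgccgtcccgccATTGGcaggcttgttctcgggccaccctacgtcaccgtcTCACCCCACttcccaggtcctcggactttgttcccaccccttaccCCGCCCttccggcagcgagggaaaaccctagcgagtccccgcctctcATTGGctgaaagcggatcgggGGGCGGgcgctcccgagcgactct
Mvd: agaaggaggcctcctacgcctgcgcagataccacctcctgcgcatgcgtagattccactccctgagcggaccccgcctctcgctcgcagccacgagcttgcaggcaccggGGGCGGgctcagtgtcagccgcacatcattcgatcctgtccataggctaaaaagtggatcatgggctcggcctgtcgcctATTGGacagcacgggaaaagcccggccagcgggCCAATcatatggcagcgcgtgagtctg
Lss: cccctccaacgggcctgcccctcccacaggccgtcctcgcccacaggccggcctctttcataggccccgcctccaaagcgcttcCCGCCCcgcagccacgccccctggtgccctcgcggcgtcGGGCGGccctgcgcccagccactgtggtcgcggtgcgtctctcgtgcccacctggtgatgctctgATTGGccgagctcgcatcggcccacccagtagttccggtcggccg
Over the whole window, 250 bases before to 50 after the start site, a CCAAT match was present in 21 of the 25 genes (84.0%) against 41.06% of 27025 genes in the table. A GGGCGG match was present in 23 of the 25 (92.0%) against 38.2%. The 27025 genes were not limited to those that passed the filter on low values, whereas all 25 passed it. No share was computed over the genes kept, so these differences are not shown to be particular to cholesterol genes. The sterol regulatory form was found in 1 of the 25 (4.0%), Hmgcs1, against 1.44% of all genes; these letters cover only 1 of the forms of that element. The motifs do not overlap in the sequences shown.

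Values are TPM divided by a median-ratio factor of each library (scaled TPM), and log2 changes are differences of log2(scaled TPM + 1), which understates folds of low genes. The scaling matters here: small noncoding RNAs took 62.0 to 66.4% of deposited TPM in sham libraries, against 0.705 to 0.862% after MCAO, and mitochondrial RNA 0.277 to 0.577% against 22.6 to 28.9%. In the deposited TPM the median log2 change of all genes kept against sham was 0.56 for control oligo and 0.61 for knockdown; after scaling it was 0.01 for both. Aligned bases were 2702 to 2874.6 Mb in sham and 4400.3 to 4915.8 Mb in MCAO libraries. Along the 31 genes, the last exon was covered more deeply than the first by a median log2 ratio of 0.59 to 0.87 in sham and 1.19 to 2.03 in MCAO libraries, a difference that goes with the data sets. The transcript used had almost no coverage for some genes, such as Mvd with 0 on both exons in sham 1. Ratios of such genes are held near 0 by the 1 added to each coverage. Markers of excitatory neurons were detected in all libraries, with sums of 968.3 to 1433 scaled TPM. The 4 markers of striatum, the tissue under the cortex, summed to 58.9 to 67.4 in sham and 131.6 to 165.2 with control oligo. In knockdown 2, 3 and 4 the sums were 158.9, 134.9 and 78.1, so the sum was above sham in every MCAO library. The single markers did not move together. With control oligo 2 were called higher and 1 lower, and in knockdown 3 higher and 1 lower (limma, adjusted p under 0.05). Of all genes, 26.1% were called higher and 29.2% lower with control oligo, and 22.7% and 27.1% in knockdown. In each sham library 2 of the 4 were under 1 scaled TPM. The part of striatal tissue in the results below was not tested. The sum of 4 choroid plexus markers was 49.9 in knockdown 3 and 1.25 to 2.68 in the other 8 libraries.

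Knockdown 4 stood apart from its group. Over all genes kept, its log2 values correlated with those of knockdown 2 and 3 at r = 0.939 and 0.941, against 0.983 between those 2 libraries. Its 6 neutrophil markers summed to 1217 scaled TPM, against 60.7 and 77.2 in knockdown 2 and 3, and against 287.5, 23.4 and 322.9 in control oligo 1, 2 and 3. The sham sums were 2.29 to 7.09, with 2 to 4 of the 6 markers at 0. Its microglial sum was 339.2 (172.6 to 194.9 in the other MCAO libraries), its endothelial sum 341 (142.7 to 204.3) and its meningeal sum 124 (27.4 to 47.4). Counts of the 31 genes and of other pathway genes called against sham are given with and without it. So are those changes of the 31 genes against sham that it moved by over 1.5 times or across the threshold. In tissue samples, fewer cells of a type and less RNA per cell cannot be told apart.

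**Figure D1:**
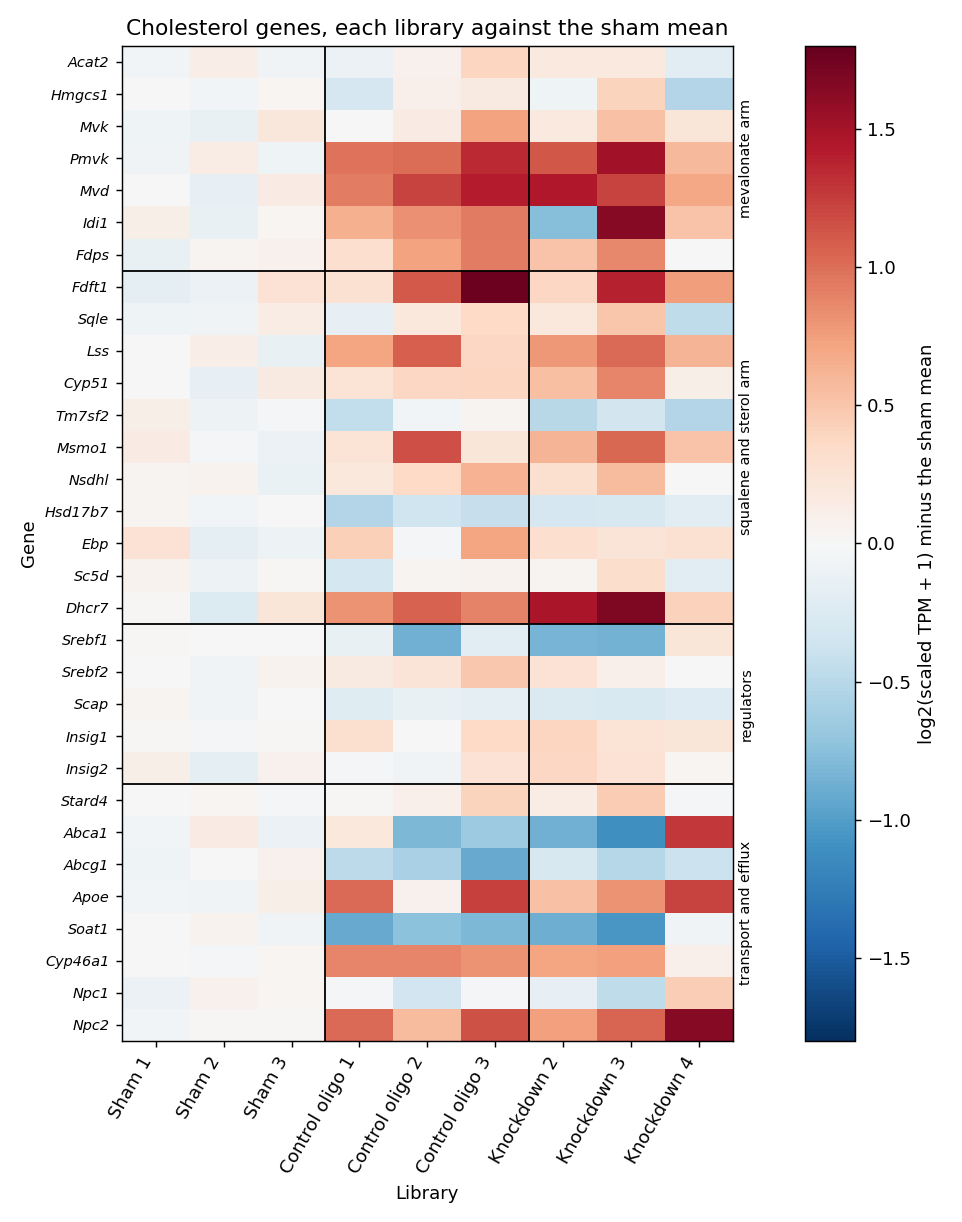
Each cell is the log2(scaled TPM + 1) of a gene (rows, by role) in a library (columns, by group) minus the mean of the 3 sham libraries. Pmvk, Mvd and Dhcr7 are above the sham mean in all 6 MCAO libraries, and knockdown 4 differs from knockdown 2 and 3 at Srebf1, Abca1, Soat1 and Cyp46a1.

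The comparison of control oligo with sham cortex asked which of these genes differed in the infarcted cortex. Of the 31 genes, 10 rose and 3 fell (limma, adjusted p under 0.05), where 26.1% of all genes kept rose and 29.2% fell. Synthesis took the larger part: 8 of 18 synthesis enzymes rose (Pmvk, Mvd, Idi1, Fdps, Fdft1, Lss, Cyp51 and Dhcr7) and 1 fell (Hsd17b7), with a median log2 change of 0.38 against 0.01 for all genes kept. Among the 8 transport and efflux genes, Cyp46a1 and Npc2 rose, Abcg1 and Soat1 fell, and the median change was 0.02. The groups did not overlap for 13 genes with higher and 5 with lower values, against 30.8% and 33.2% of all genes. In the deposited TPM without scaling, 25 of the 31 rose and none fell, where 52.6% of all genes rose and 12.8% fell, so each call of a fall among the 31 depends on the scaling.

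The comparison of knockdown with sham used the same sham libraries, so its values are not a second sample of the stroke effect. Here 9 genes rose (Pmvk, Mvd, Fdft1, Lss, Msmo1, Dhcr7, Insig1, Apoe and Npc2) and 2 fell (Tm7sf2 and Abcg1), where 22.7% of all genes rose and 27.1% fell (limma). The 18 synthesis enzymes had a median log2 change of 0.39 with 6 higher and 1 lower, and the transport and efflux genes 0.06 with 2 higher and 1 lower. Groups did not overlap for 10 higher and 5 lower genes, against 29.8% and 32.3% of all genes. Without knockdown 4, 13 of the 31 rose and 7 fell, where 28.0% of all genes rose and 30.6% fell; without sham 1 or sham 2 the counts were 5 and 1 in both cases, without sham 3 they were 8 and 0, without knockdown 2 they were 8 and 1, and without knockdown 3 they were 6 and 2. In these last 5 settings 16.0 to 20.8% of all genes rose and 22.1 to 25.7% fell. In unscaled TPM 25 rose and none fell, where 52.7% of all genes rose and 12.5% fell. Without knockdown 4, 9 synthesis enzymes rose and 2 fell, and 3 transport and efflux genes rose and 3 fell.

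**Figure D2:**
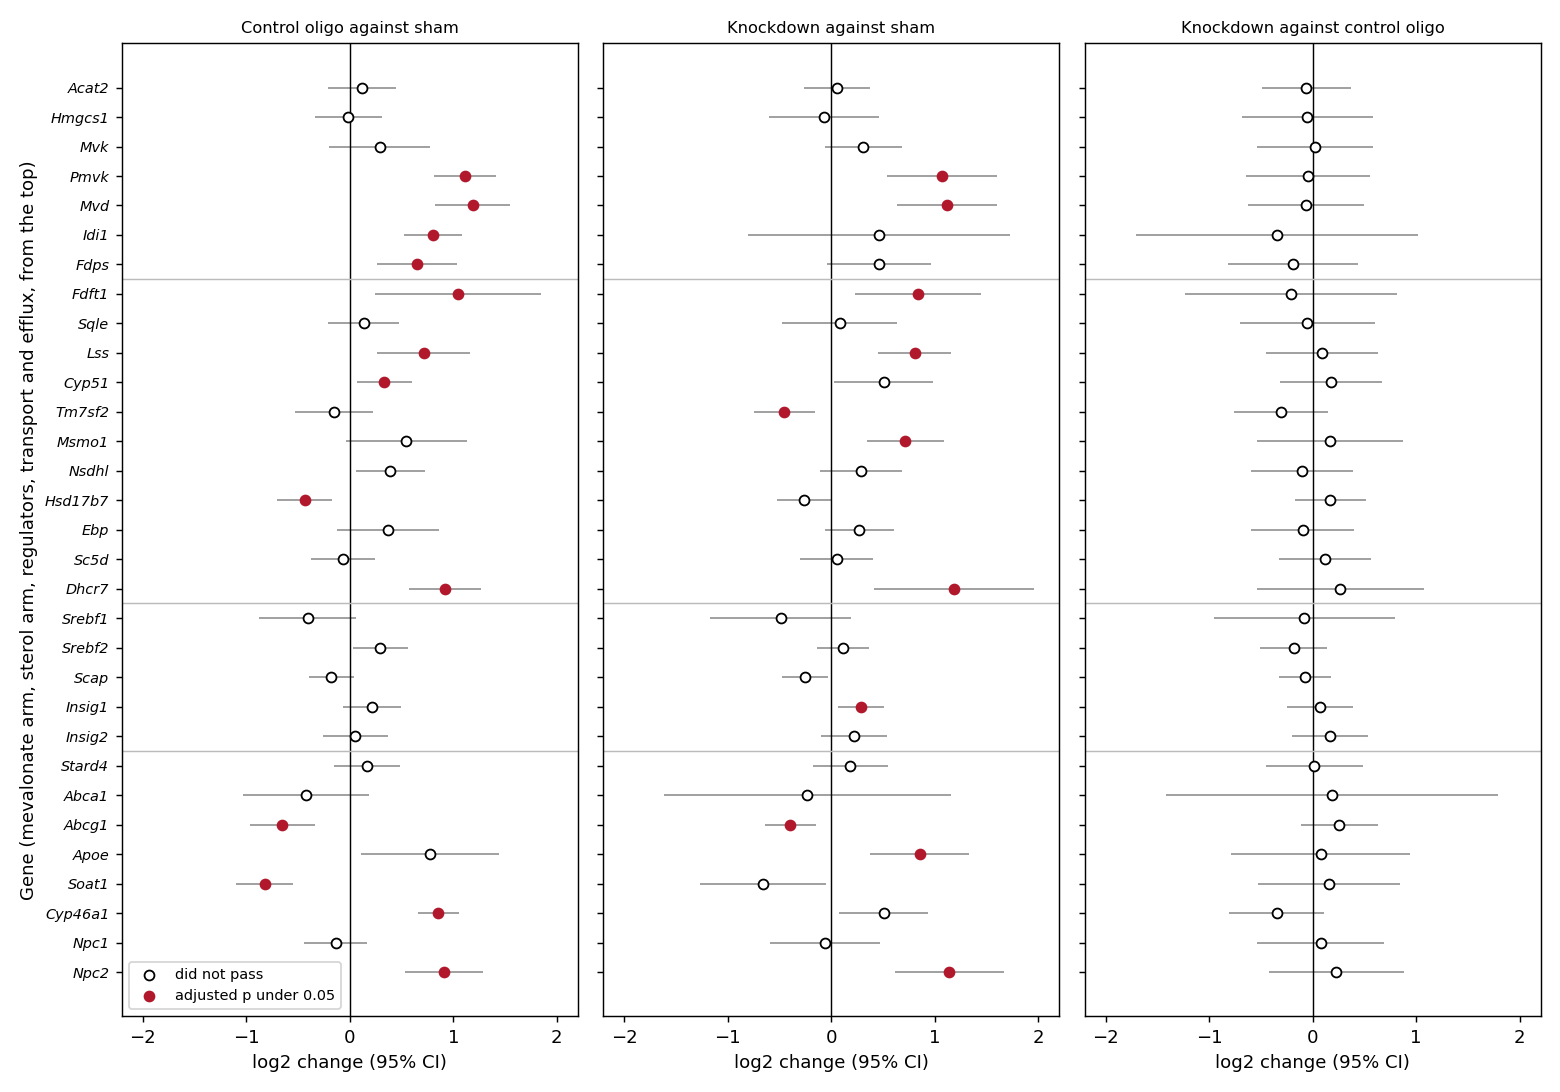
Log2 change of each gene (points) with its 95% confidence interval from limma (lines), in 3 comparisons of 3 libraries against 3; filled points passed an adjusted p of 0.05. In the first panel 10 genes rose and 3 fell, in the second 9 rose and 2 fell, and in the third no gene passed.

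The mevalonate arm rose at its later steps. Pmvk, the phosphomevalonate kinase, stood at 33.8, 38.8 and 33.4 scaled TPM in the sham libraries, 70.7, 72.1 and 91.0 with control oligo, and 77.4, 102 and 53.5 with knockdown. All 6 MCAO libraries were above all sham libraries. The log2 change against sham was 1.11 ± 0.13 (SE) in control oligo (limma, adjusted p = 0.000356) and 1.07 ± 0.23 in knockdown (limma, adjusted p = 0.00706). Mvd, which decarboxylates mevalonate diphosphate, stood at 11.2, 10.04 and 12.5 in sham, 22.2, 27.5 and 31.4 with control oligo, and 32.2, 27.5 and 18.8 scaled TPM with knockdown. Its groups likewise did not overlap with sham, with changes of 1.19 ± 0.15 (limma, adjusted p = 0.000599) and 1.12 ± 0.20 (limma, adjusted p = 0.00378). Each of these calls held when any 1 library was left out.

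Idi1, the isomerase that makes the second building block of isoprenoids, was even in the control oligo group and uneven in the knockdown group. It stood at 26.4, 22.3 and 25.1 scaled TPM in the sham libraries, 38.9, 44.4 and 48.0 with control oligo, and 14.0, 78.2 and 35.4 with knockdown. Knockdown 2 was below and knockdown 3 above every other library. The change was 0.80 ± 0.12 in control oligo (limma, adjusted p = 0.0011) and 0.46 ± 0.53 in knockdown, which did not pass (limma, adjusted p = 0.498); without knockdown 2 it was 1.07 (limma, adjusted p = 0.0384). Fdps, which makes farnesyl diphosphate, stood at 35.8, 40.6 and 41.3 in sham, 48.7, 65.2 and 75.1 with control oligo, and 56.2, 72.2 and 39.4 scaled TPM with knockdown. Only knockdown 4 fell within the sham range. The change was 0.65 ± 0.16 in control oligo (limma, adjusted p = 0.0123) and 0.46 ± 0.21 in knockdown (limma, adjusted p = 0.109), or 0.69 without knockdown 4 (limma, adjusted p = 0.00498).

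The first steps did not pass in either comparison with sham. Hmgcs1, the synthase whose window holds the sterol regulatory match shown above, is the most abundant of the 18 synthesis genes, at 156 ± 4.70 scaled TPM in the sham libraries, 156 ± 26.2 in control oligo and 154 ± 50.1 in knockdown (SD, n = 3). Its log2 change was -0.02 ± 0.14 in control oligo and -0.07 ± 0.22 in knockdown, or 0.16 without knockdown 4 (limma, adjusted p = 0.376), and in unscaled TPM it was 0.65 in both and passed (limma, adjusted p = 0.00591 and 0.0429). Acat2, which joins 2 acetyl-CoA, changed by 0.12 and 0.06 (the latter 0.18 without knockdown 4), and Mvk, mevalonate kinase, by 0.29 and 0.31, with overlapping groups. The transcript assigned to Acat2 differed with the data set: ENSMUST00000007005 held 44.3 to 55.2% of the gene's TPM in sham libraries, against 71.3 to 97.1% after MCAO.

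In the squalene and sterol arm, Fdft1, squalene synthase and the first enzyme committed to sterols, showed the widest spread. It stood at 30.2, 31.4 and 40.7 scaled TPM in the sham libraries, 41.2, 73.7 and 117 with control oligo, and 44.2, 90.1 and 57.7 with knockdown. The lowest control oligo library was just above the highest sham library. The change was 1.05 ± 0.34 in control oligo (limma, adjusted p = 0.0336) and 0.84 ± 0.26 in knockdown (limma, adjusted p = 0.0319). The first call was lost without sham 1, 2 or 3 (limma, adjusted p = 0.0993, 0.0919 and 0.0504) and without control oligo 2 or 3 (0.08 and 0.0643). The second was lost without sham 1 or 2 or knockdown 3 (limma, adjusted p = 0.105, 0.0976 and 0.0532). Fdft1 also shares 774 exon bases with Ctsb, on the other strand and at a mean of 252 scaled TPM, and the files were made without a strand option, so its level is uncertain.

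Lss, lanosterol synthase, stood at 8.06, 8.76 and 7.23 scaled TPM in the sham libraries, 13.7, 17.9 and 10.6 with control oligo, and 14.5, 17.2 and 12.8 with knockdown. All MCAO libraries were above sham, with changes of 0.72 ± 0.19 (limma, adjusted p = 0.0156) and 0.81 ± 0.15 (limma, adjusted p = 0.00395); the first call was lost without sham 3 (limma, adjusted p = 0.0569). Cyp51, the lanosterol demethylase, rose least of those called, from 30.9, 28.0 and 34.9 in sham to 37.0, 40.8 and 40.9 scaled TPM in control oligo (0.33 ± 0.11; limma, adjusted p = 0.0389). That call was lost without sham 1 or 2 (limma, adjusted p = 0.107 and 0.139) and without control oligo 2 or 3 (0.0741 and 0.0707). In knockdown libraries Cyp51 stood at 45.5, 58.1 and 33.6 scaled TPM, with only knockdown 4 inside the sham range. The change of 0.51 ± 0.20 did not pass (limma, adjusted p = 0.073), and it was 0.71 without knockdown 4 (limma, adjusted p = 0.00617).

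Msmo1, the methylsterol monooxygenase, stood at 47.0, 41.3 and 39.6 scaled TPM in the sham libraries, 50.6, 96.7 and 49.8 with control oligo, and 65.3, 87.9 and 61.1 with knockdown. Neither MCAO group overlapped with sham. The change in knockdown passed (0.72 ± 0.16; limma, adjusted p = 0.00837) and that in control oligo, where replicate 2 was far above its mates, did not (0.55 ± 0.25; limma, adjusted p = 0.101). The difference between the 2 groups, 0.17 with a 95% interval from -0.53 to 0.88, did not pass either.

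Dhcr7, a reductase at the end of the pathway, stood at 11.8, 9.65 and 13.6 scaled TPM in the sham libraries, 21, 25.3 and 22.2 with control oligo, and 33.9, 39.1 and 15.7 with knockdown. All MCAO libraries were above sham, and knockdown 4 was below every control oligo library while knockdown 2 and 3 were above. The change was 0.92 ± 0.15 in control oligo (limma, adjusted p = 0.00168) and 1.19 ± 0.33 in knockdown (limma, adjusted p = 0.0212). The second call was lost without sham 1 or 2 (limma, adjusted p = 0.0631 and 0.0756) or knockdown 2 or 3 (0.0663 and 0.0651), and without knockdown 4 the change was 1.57 (limma, adjusted p = 0.00037). Its level rests on how bases were assigned to transcripts of unlike length. ENSMUST00000073878 held 72.0 to 74.1% of Dhcr7 TPM in control oligo but 0 to 7.22% in knockdown libraries, and the aligned bases on the gene were 137.5, 184.1 and 145.6 kb in control oligo and 113.4, 196.5 and 106.5 kb in knockdown.

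Enzymes of the sterol arm also fell. Hsd17b7, a ketosteroid reductase, stood at 13.5, 12.5 and 12.9 scaled TPM in the sham libraries, 8.69, 9.85 and 9.46 with control oligo, and 10.3, 10.4 and 11.2 with knockdown. All MCAO libraries were below sham. The change was -0.44 ± 0.11 in control oligo (limma, adjusted p = 0.0144), a call lost without sham 1 or 3 (limma, adjusted p = 0.0641 and 0.0513). In knockdown it was -0.27 ± 0.11 (limma, adjusted p = 0.0831), or -0.30 without knockdown 4 (limma, adjusted p = 0.0411). In unscaled TPM both were positive, 0.18 and 0.40.

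Tm7sf2, a sterol reductase, stood at 13.3, 11.4 and 12.1 scaled TPM in the sham libraries, 8.71, 11.8 and 12.8 with control oligo, and 8.39, 9.55 and 8.19 with knockdown. The knockdown group did not overlap with sham and the control oligo group did. The changes were -0.45 ± 0.13 (limma, adjusted p = 0.0217) and -0.15 ± 0.16 (limma, adjusted p = 0.458), and the first was 0.21 in unscaled TPM and was lost without sham 1 or 3 (limma, adjusted p = 0.0935 and 0.0697) or knockdown 2 (0.0532). Tm7sf2 shares 532 exon bases with Vps51 on the same strand, at a mean of 29.2 scaled TPM, so reads could be split between the 2 genes.

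Of the other enzymes, Nsdhl, a sterol dehydrogenase, was close to the threshold in control oligo (0.39 ± 0.14; limma, adjusted p = 0.0503; without control oligo 1, 0.0312) and changed by 0.29 in knockdown (limma, adjusted p = 0.195), or by 0.43 without knockdown 4 (limma, adjusted p = 0.0288). Ebp, the sterol isomerase, changed by 0.37 and 0.27, and its control oligo change passed without control oligo 2 (0.57; limma, adjusted p = 0.0314). Sqle, squalene epoxidase, changed by 0.13 and 0.08, and Sc5d, the sterol desaturase, by -0.07 and 0.05; without knockdown 4 their changes in knockdown were 0.35 and 0.18 (limma, adjusted p = 0.0556 and 0.213). Sqle, often named as a control point of the pathway, stood at 33.0 ± 2.87, 36.5 ± 6.47 and 36.2 ± 11.7 scaled TPM in the sham libraries, control oligo and knockdown libraries (SD, n = 3).

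None of the 5 regulators passed between control oligo and sham. Srebf2, which encodes the SREBP of cholesterol genes, stood at 36.8, 35.0 and 38.2 scaled TPM in the sham libraries, 41.3, 43.3 and 51.6 with control oligo, and 44.0, 38.9 and 36.6 with knockdown. The control oligo libraries were all above sham (0.30 ± 0.11; limma, adjusted p = 0.0591), and the knockdown libraries overlapped with sham (0.11 ± 0.11; limma, adjusted p = 0.40; without knockdown 4, 0.17 and 0.158). Srebf1, whose SREBP acts chiefly on fatty acid genes, stood at 14.4, 14.0 and 14.0 in sham, 12.7, 7.30 and 12.1 with control oligo, and 7.50, 7.39 and 16.6 scaled TPM with knockdown. Knockdown 4 was the highest of all 9 libraries while its mates were among the lowest. The changes of -0.40 ± 0.20 (limma, adjusted p = 0.123) and -0.49 ± 0.29 (limma, adjusted p = 0.196) did not pass, and without knockdown 4 the second was -0.84 (limma, adjusted p = 0.000714).

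Scap, the escort of SREBP, stood at 32.1, 29.7 and 31.2 scaled TPM in the sham libraries, 26.4, 28.1 and 27.2 with control oligo, and 25.8, 25.4 and 26.3 with knockdown. The MCAO libraries were all below sham by small amounts. The changes were -0.18 ± 0.09 (limma, adjusted p = 0.14) and -0.25 ± 0.09 (limma, adjusted p = 0.0561), the second -0.26 without knockdown 4 (limma, adjusted p = 0.0352), and both were positive in unscaled TPM (0.46 and 0.44). Insig1, itself a target of SREBP, stood at 50.6, 48.6 and 50.7 in sham, 61.2, 49.8 and 64.4 with control oligo, and 65.8, 59.2 and 58.4 scaled TPM with knockdown. Only control oligo 2 fell within the sham range. Its change in knockdown was 0.29 ± 0.10 (limma, adjusted p = 0.0412), lost without sham 1, 2 or 3 (limma, adjusted p = 0.107, 0.131 and 0.103) and without knockdown 2 or 3 (0.0973 and 0.0593). In control oligo it was 0.21 ± 0.12 (limma, adjusted p = 0.16), or 0.32 without control oligo 2 (limma, adjusted p = 0.02). Insig2 stood at 29.4, 23.9 and 28.6 in sham, 26.6, 26.0 and 32.8 with control oligo, and 35.6, 32.6 and 27.9 scaled TPM with knockdown, with overlapping groups and changes of 0.05 ± 0.14 and 0.22 ± 0.14.

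Of the 8 transport and efflux genes, 2 rose and 2 fell with control oligo, shares close to the 26.1% and 29.2% of all genes. Apoe, the apolipoprotein that carries cholesterol between brain cells and the most abundant of the 31 genes in every group, stood at 639, 633 and 708 scaled TPM in the sham libraries, 1338, 694 and 1553 with control oligo, and 953, 1156 and 1537 with knockdown. Control oligo 2 lay inside the sham range and every other MCAO library was above it. The change was 0.78 ± 0.29 in control oligo (limma, adjusted p = 0.0511; without control oligo 2, 1.13 and 0.000631) and 0.85 ± 0.20 in knockdown (limma, adjusted p = 0.0115), the latter lost without sham 1 or 2 (limma, adjusted p = 0.054 and 0.0511). The transcript ENSMUST00000173739 held 46.7 to 71.2% of Apoe TPM in sham and 1.33 to 2.78% with control oligo. In knockdown 2, 3 and 4 it held 3.60, 3.95 and 40.4%. The part of transcript assignment in the Apoe change was not tested.

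Neither Abca1 nor Abcg1 was called higher in a comparison with sham. Abca1, which hands cholesterol to lipid-poor apolipoproteins, stood at 10.8, 12.6 and 10.3 scaled TPM in the sham libraries, 12.9, 5.99 and 6.77 with control oligo, and 5.69, 4.68 and 28.5 with knockdown. In each MCAO group 2 libraries were below all sham libraries and 1 was above them. The changes were -0.42 ± 0.26 (limma, adjusted p = 0.20) and -0.23 ± 0.59 (limma, adjusted p = 0.762). Without control oligo 1 the first was -0.73 (limma, adjusted p = 0.0093), and without knockdown 4 the second was -0.99 (limma, adjusted p = 0.00158). Control oligo 1 and knockdown 4 are 2 of the 3 libraries with the most neutrophil marker RNA (287.5 and 1217 scaled TPM), and control oligo 3, the other, had an Abca1 level of 6.77; the part of those cells in the Abca1 level was not tested.

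Abcg1, which loads formed particles, stood at 33.8, 36.1 and 37.8 scaled TPM in the sham libraries, 25.6, 23.6 and 18.7 with control oligo, and 29.1, 24.9 and 27.2 with knockdown. The MCAO libraries were all below sham, knockdown 4 included. The changes were -0.65 ± 0.13 (limma, adjusted p = 0.00509) and -0.40 ± 0.11 (limma, adjusted p = 0.0183), the second lost without sham 2 or 3 (limma, adjusted p = 0.0655 and 0.0762). In unscaled TPM they were -0.01 and 0.30.

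Soat1, which esterifies cholesterol for storage, stood at 13.6, 14.4 and 13.1 scaled TPM in the sham libraries, 6.83, 7.83 and 7.38 with control oligo, and 7.04, 6.10 and 13.1 with knockdown. The control oligo libraries and knockdown 2 and 3 were at about the same low level, and knockdown 4 was level with the lowest sham library. The change was -0.82 ± 0.12 in control oligo (limma, adjusted p = 0.000943) and -0.66 ± 0.26 in knockdown (limma, adjusted p = 0.0679), or -0.96 without knockdown 4 (limma, adjusted p = 0.000758). In unscaled TPM the 2 changes were -0.21 and -0.003.

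Cyp46a1, the neuronal hydroxylase that turns over brain cholesterol, was nearly uniform within sham and control oligo. It stood at 88.4, 87.4 and 91.5 scaled TPM in the sham libraries, 165, 164 and 157 with control oligo, and 146, 149 and 94.8 with knockdown. All 3 groups were apart from each other, with knockdown 4 just above sham. The change against sham was 0.86 ± 0.09 in control oligo (limma, adjusted p = 0.000181). In knockdown it was 0.51 ± 0.18 (limma, adjusted p = 0.0528), or 0.72 without knockdown 4 (limma, adjusted p = 0.000374). The excitatory neuron markers had sums of 968.3 to 1016 in sham and 1199 to 1433 in MCAO libraries, lowest among the latter in knockdown 4. The 6 markers did not move together. With control oligo 2 were called higher and 2 lower, and in knockdown 1 higher and 2 lower (limma, adjusted p under 0.05). The shares of all genes called higher and lower were 26.1% and 29.2% with control oligo, and 22.7% and 27.1% in knockdown. The median log2 changes of these markers were -0.007 and -0.175. The striatal sums given above were also higher in control oligo and in knockdown 2 and 3 than in sham, with knockdown 4 (78.1) nearest to sham (58.9 to 67.4). The part of either set of cells in the Cyp46a1 change was not tested.

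Npc2, the soluble lysosomal protein that passes cholesterol on, stood at 17.9, 19.0 and 19.0 scaled TPM in the sham libraries, 38.8, 28.1 and 42.7 with control oligo, and 31.7, 39.7 and 60.3 with knockdown. Each MCAO library was above sham, and knockdown 4 was the highest. The changes were 0.91 ± 0.16 (limma, adjusted p = 0.00242) and 1.14 ± 0.22 (limma, adjusted p = 0.00489), and the second was 0.89 without knockdown 4 (limma, adjusted p = 0.00114). Npc1, its membrane partner, stood at 18.4, 20.9 and 20.3 in sham, 19.3, 15.3 and 19.6 with control oligo, and 17.7, 14.1 and 27.2 scaled TPM with knockdown. The groups overlapped, with changes of -0.13 ± 0.13 and -0.06 ± 0.22 (limma, adjusted p = 0.407 and 0.844), the latter -0.31 without knockdown 4 (limma, adjusted p = 0.0805). Npc1 shares 511 exon bases with Rmc1, on the other strand and at a mean of 20.1 scaled TPM. The files were made without a strand option, so the Npc1 level is uncertain. Stard4, a cytosolic sterol carrier, stood at 11.0, 11.4 and 10.8 in sham, 11.2, 11.8 and 14.9 with control oligo, and 12.2, 15.6 and 10.7 scaled TPM with knockdown, with changes of 0.17 ± 0.14 and 0.19 ± 0.15 (limma, adjusted p = 0.321 and 0.343), the latter 0.30 without knockdown 4 (limma, adjusted p = 0.0914).

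**Figure D3:**
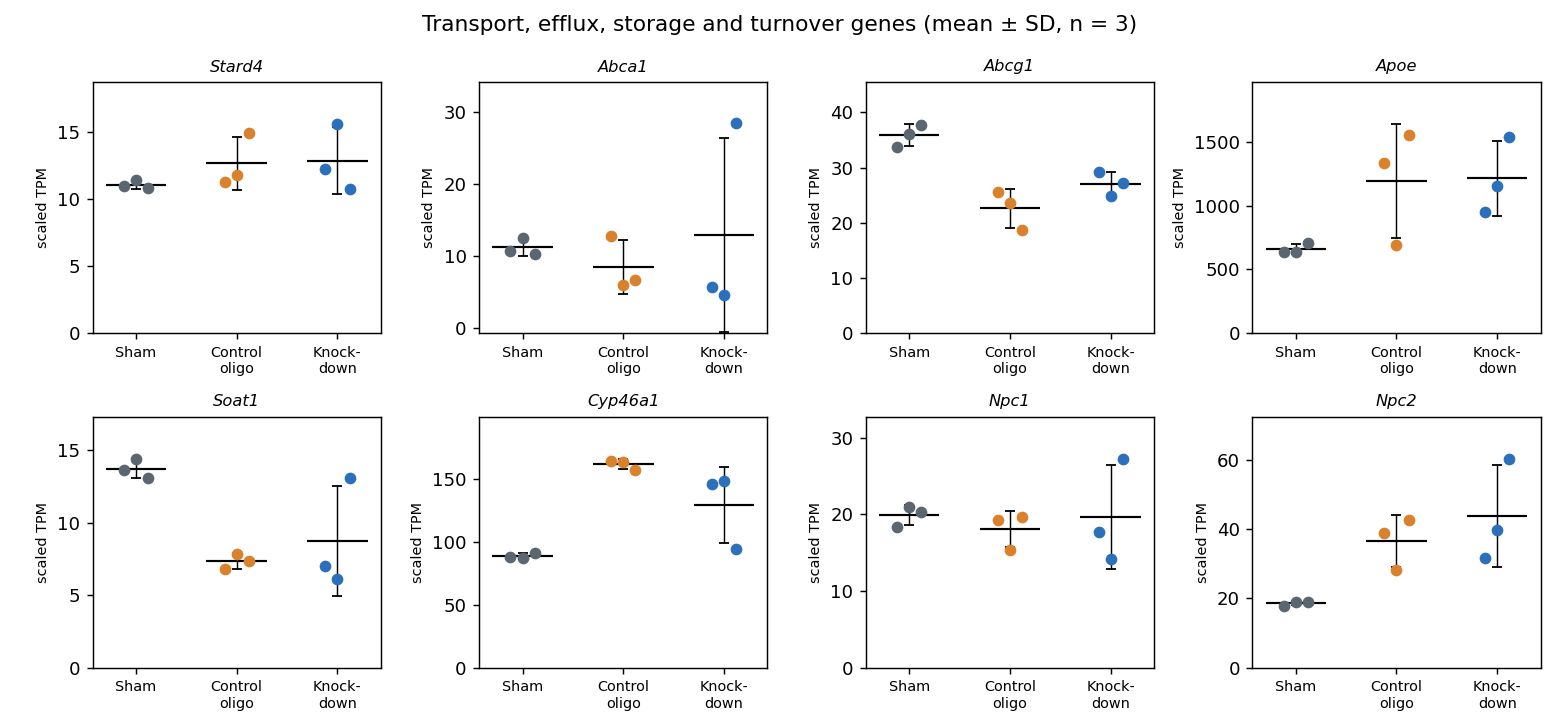
Scaled TPM of the 8 transport, efflux, storage and turnover genes in each library (points, in order of replicate number), with the group mean (long line) and SD (capped line), n = 3; each panel has its own axis. Cyp46a1 and Npc2 lie above sham in all 6 MCAO libraries and Abcg1 below, and the knockdown spread of Abca1 and Soat1 comes from the library at 28.5 and 13.1.

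Whether the knockdown itself moved these genes was asked against the control oligo. None of the 31 passed (limma, adjusted p = 1.0 for each) or reached an unadjusted p of 0.05, and none passed under any of the alternatives, leaving out single libraries included. Over all genes kept, 2 rose (0.0117%) and 1 fell (0.00585%), and 405 of 17080 reached an unadjusted p of 0.05. The median log2 change was -0.05 for the synthesis enzymes and 0.12 for the transport and efflux genes, against 0.01 for all genes kept. Without knockdown 4 these medians were 0.14 and -0.12, so both changed sign with that library. Among the genes that it moved, Dhcr7 went from 0.27 to 0.65 without it, Srebf1 from -0.08 to -0.44, Abca1 from 0.19 to -0.56, Soat1 from 0.16 to -0.14 and Npc1 from 0.08 to -0.17 (limma, adjusted p = 0.686 to 0.864 without it). None of these passed with or without that library. As given above, the Dhcr7 level rests on how bases were assigned to transcripts of unlike length.

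The groups did not overlap for 3 members. Hsd17b7 was higher in knockdown (0.17, 95% interval -0.17 to 0.51), where 3.49% of all genes did not overlap and were higher. Scap (-0.07, -0.32 to 0.17) and Cyp46a1 (-0.35, -0.81 to 0.11) were lower, where 2.89% of all genes were; without knockdown 4 the Cyp46a1 change was -0.14 (limma, adjusted p = 0.783). With counts of 1 and 2 genes in 31, no more can be read from this.

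The intervals show what could have been missed. They were narrowest for Scap, and for Nsdhl, Pmvk and Mvd they reached from -0.60 to 0.39, from -0.64 to 0.56 and from -0.63 to 0.49. They were widest for Abca1 (-1.41 to 1.79) and Idi1 (-1.70 to 1.02), where the knockdown libraries differed most among themselves. For those genes, any change inside these intervals is compatible with the 3 libraries a group, and no detection limit was computed.

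Synthesis and transport were also set side by side within each library. The mean log2(scaled TPM + 1) of the 18 synthesis enzymes minus that of the 8 transport and efflux genes was -0.48, -0.62 and -0.51 in sham, -0.53, 0.08 and -0.08 with control oligo, and -0.17, 0.22 and -0.91 in knockdown 2, 3 and 4. Control oligo 2 and knockdown 3 had synthesis above transport, control oligo 1 was at the level of sham, and knockdown 4 was the lowest of all 9. The synthesis mean was higher in every MCAO library (4.71 to 5.31) than in sham (4.51 to 4.61), and the transport mean was 5.06 to 5.14 in sham, 4.99 to 5.32 in the other MCAO libraries and 5.62 in knockdown 4.

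The same library was often the highest or lowest of its group across synthesis enzymes. Control oligo 1 was the lowest of its group in 15 of the 18 synthesis enzymes and control oligo 3 the highest in 14, knockdown 3 was the highest of its group in 14 and knockdown 4 the lowest in 13. The exceptions include Hsd17b7, which was highest in knockdown 4. In sham the extremes were divided more evenly, with sham 2 the lowest in 10 and sham 3 the highest in 8 of the 18. Knockdown 4 was the highest of its group in 5 of the 8 transport and efflux genes. Its higher sums of neutrophil, microglial, endothelial and meningeal markers are given above, and their part in this pattern was not tested.

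**Figure D4:**
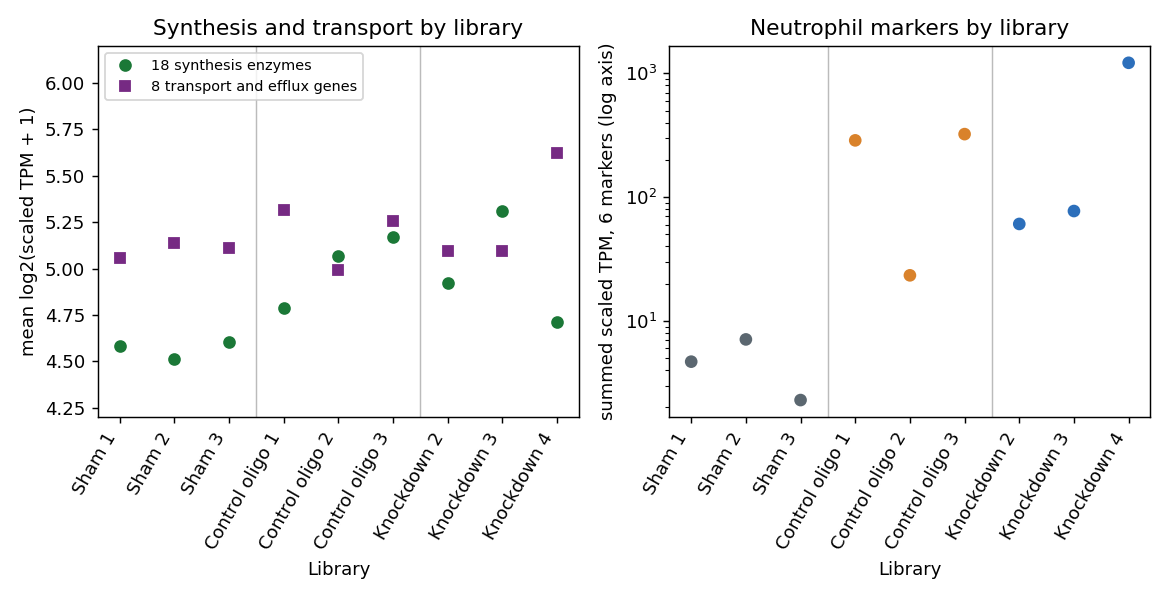
Left, mean log2(scaled TPM + 1) of 18 synthesis enzymes (circles) and 8 transport and efflux genes (squares) in each library. Right, summed scaled TPM of 6 neutrophil markers on a log axis, coloured by group. Knockdown 4 has the widest gap between transport (5.62) and synthesis (4.71) and the highest marker sum (1217).

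Other genes of the pathway were taken from 7 lists, of which 67 genes were kept. With control oligo 16 of the 67 rose and 17 fell, where 26.1% and 29.2% of all genes did, and in knockdown 15 rose and 15 fell, where 22.7% and 27.1% did. Without knockdown 4 the latter counts were 19 and 19, where 28.0% and 30.6% of all genes were called. These totals are close to the shares of all genes, and in the lists below a count of a few genes is read only against those shares. In the list of SREBP processing and sterol-regulated degradation, 0 of 8 rose and 2 fell in control oligo against sham, and 1 rose and 1 fell in knockdown against sham, where 26.1% and 22.7% of all genes rose and 29.2% and 27.1% fell; without knockdown 4 the counts in knockdown were 1 and 2. Mbtps2, a protease that releases SREBP from the membrane, fell by 0.59 in control oligo (limma, adjusted p = 0.00487) and by 0.54 in knockdown (limma, adjusted p = 0.00973). Erlin2, of the complex that degrades sterol-regulated proteins, fell by 0.42 in control oligo (limma, adjusted p = 0.0325) and changed by -0.17 in knockdown (limma, adjusted p = 0.232). Its partner Erlin1 changed by 0.36 in control oligo (limma, adjusted p = 0.0704) and rose by 0.49 in knockdown (limma, adjusted p = 0.0232).

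Of the fatty acid genes that SREBP also drives, 3 of 13 rose and 4 fell in each comparison with sham, about the shares of all genes (26.1% and 29.2% with control oligo, 22.7% and 27.1% in knockdown). Without knockdown 4 the counts in knockdown were 3 and 5, where 28.0% of all genes rose and 30.6% fell. Acaca, acetyl-CoA carboxylase, went from 34.8, 34.9 and 35.1 scaled TPM in sham to 12.3, 15.1 and 12.3 in control oligo and 13.6, 10.1 and 12.4 with knockdown. All MCAO libraries were far below sham, with changes of -1.34 ± 0.11 (limma, adjusted p = 8.9e-05) and -1.47 ± 0.13 (limma, adjusted p = 0.000154). Fasn, fatty acid synthase, changed by -0.73 (limma, adjusted p = 0.00312) and -0.80 (limma, adjusted p = 0.00207), and Acly, which makes cytosolic acetyl-CoA for both pathways, by -0.53 (limma, adjusted p = 0.00233) and -0.51 (limma, adjusted p = 0.00267). Fads1, a fatty acid desaturase, rose by 0.86 (limma, adjusted p = 0.001) and 0.91 (limma, adjusted p = 0.00121). The calls of a fall in this list depend mostly on the scaling. In unscaled TPM 7 of the 13 rose and 1 fell in each comparison with sham. Of all genes, 52.6% rose and 12.8% fell with control oligo in that setting, and 52.7% and 12.5% in knockdown.

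Among the LXR and oxysterol genes, 5 of 11 rose and 1 fell with control oligo, where 26.1% and 29.2% of all genes did. In knockdown 3 rose and none fell, where 22.7% and 27.1% of all genes did. Without knockdown 4 the counts were 4 and 1, where 28.0% and 30.6% of all genes did. LXR is the receptor that senses oxysterols and drives Abca1, Abcg1 and Apoe. Nr1h2, which encodes LXR-beta, rose by 0.76 (limma, adjusted p = 0.00396) and 0.70 (limma, adjusted p = 0.0203). Ch25h, which makes an oxysterol, stood at 0.614, 2.03 and 0.463 scaled TPM in the sham libraries, 11.7, 4.01 and 29.7 with control oligo, and 4.25, 6.12 and 35.0 with knockdown. It rose by 2.70 in control oligo (limma, adjusted p = 0.00823) and by 2.52 in knockdown (limma, adjusted p = 0.0229), or by 1.67 without knockdown 4 (limma, adjusted p = 0.00692). Its 3 highest libraries, control oligo 1 and 3 and knockdown 4, are those with the most neutrophil marker RNA, whose part was not tested. Hsd3b7, an enzyme of bile acid synthesis, stood at 4.28, 3.75 and 3.22 scaled TPM in the sham libraries, 12.5, 8.01 and 10.3 with control oligo, and 3.38, 2.87 and 6.83 with knockdown. Its knockdown libraries were all below the control oligo libraries, where 2.89% of all genes were lower without overlap. Knockdown 2 and 3 were near sham, and knockdown 4 was above every sham library. The change between knockdown and control oligo was -1.13 ± 0.32 (limma, adjusted p = 1.0), which did not pass. Without knockdown 4 it was -1.43 (limma, adjusted p = 0.57), which did not pass either. Lpcat3, a phospholipid acyltransferase, rose in control oligo by 0.68 (limma, adjusted p = 0.002) and changed by 0.69 in knockdown (limma, adjusted p = 0.0745), or by 0.36 without knockdown 4 (limma, adjusted p = 0.049). Cyp7b1, an oxysterol hydroxylase, fell by 0.63 in control oligo (limma, adjusted p = 0.00514) and changed by -0.34 in knockdown (limma, adjusted p = 0.0662), or by -0.43 without knockdown 4 (limma, adjusted p = 0.0135).

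Of 9 genes of lipoprotein uptake and lysosomal release, 1 rose and 3 fell in each comparison with sham. Over all genes 26.1% rose and 29.2% fell with control oligo, and 22.7% and 27.1% in knockdown. Without knockdown 4 the counts in knockdown were 2 and 4, where 28.0% of all genes rose and 30.6% fell. Scarb1, the scavenger receptor for high-density lipoprotein, rose by 1.32 (limma, adjusted p = 0.000254) and 1.44 (limma, adjusted p = 7.9e-05). The lipoprotein receptors Vldlr and Lrp8 fell, Vldlr by 0.76 (limma, adjusted p = 0.00125) and 0.70 (limma, adjusted p = 0.00267) and Lrp8 by 0.72 (limma, adjusted p = 0.0149) and 0.76 (limma, adjusted p = 0.0105). Sort1, a sorting receptor, fell by 1.17 (limma, adjusted p = 0.000119) and 1.14 (limma, adjusted p = 0.000362). Lrp1, a large receptor for apolipoprotein E particles, stood at 86.8, 79.2 and 78.5 scaled TPM in the sham libraries, 63.9, 97.8 and 110 with control oligo, and 23.4, 19.1 and 140 with knockdown. Knockdown 4 was the highest and its mates the lowest of all libraries, and the change was -1.01 against sham (limma, adjusted p = 0.254) and -1.12 ± 0.74 against control oligo (limma, adjusted p = 1.0). Without knockdown 4 these were -1.90 (limma, adjusted p = 6.1e-05) and -2.01 (limma, adjusted p = 0.468).

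Of 8 other efflux pumps and carriers, 5 rose and 2 fell in each comparison with sham. Of all genes, 26.1% (control oligo) and 22.7% (knockdown) rose, and 29.2% and 27.1% fell. The counts in knockdown were the same without knockdown 4, where 28.0% of all genes rose and 30.6% fell. Clu, clusterin or apolipoprotein J, rose by 1.12 (limma, adjusted p = 0.000545) and 1.31 (limma, adjusted p = 0.000687). Apod, a glial lipocalin, rose by 1.96 (limma, adjusted p = 0.00924) and 2.26 (limma, adjusted p = 0.00931), and Abcg4, a neural sterol exporter, by 0.73 (limma, adjusted p = 0.00764) and 0.51 (limma, adjusted p = 0.0124). Lcat, which esterifies cholesterol on particles, rose by 0.67 (limma, adjusted p = 0.0217) and 0.73 (limma, adjusted p = 0.00335). Abca5 fell by 1.45 (limma, adjusted p = 0.00023) and 1.46 (limma, adjusted p = 0.000193), and Abca2 by 0.36 (limma, adjusted p = 0.013) and 0.70 (limma, adjusted p = 0.00913).

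Of 10 sterol transfer and storage genes, 9 were kept; 0 rose and 2 fell with control oligo, and 2 rose and 2 fell in knockdown (4 and 2 without knockdown 4). Over all genes 26.1% rose and 29.2% fell with control oligo, and 22.7% and 27.1% in knockdown. Nceh1, a hydrolase of cholesterol esters and so the opposite of Soat1, fell by 1.21 (limma, adjusted p = 5.2e-05) and 1.27 (limma, adjusted p = 0.000257). Osbpl1a, an oxysterol-binding protein, fell by 0.92 (limma, adjusted p = 0.000954) and 0.98 (limma, adjusted p = 0.00398). Scp2 and Gramd1a, carriers of sterol between membranes, rose in knockdown by 0.38 (limma, adjusted p = 0.0195) and 0.41 (limma, adjusted p = 0.0237) and changed in control oligo by 0.21 and 0.23 (limma, adjusted p = 0.266 and 0.204).

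The isoprenoid branch, which draws farnesyl diphosphate away from sterols, had 2 of 9 higher and 3 lower with control oligo, close to the 26.1% and 29.2% of all genes. In knockdown 0 were higher and 3 lower, against 22.7% and 27.1%. Without knockdown 4 the counts in knockdown were also 0 and 3, against 28.0% and 30.6%. Ggps1, which makes geranylgeranyl diphosphate, fell by 0.68 (limma, adjusted p = 0.00116) and 0.46 (limma, adjusted p = 0.00616). Pdss2, of ubiquinone synthesis, fell by 0.73 (limma, adjusted p = 0.00201) and 0.82 (limma, adjusted p = 0.00204), and Pggt1b, a subunit of a prenyl transferase, by 1.00 (limma, adjusted p = 0.0053) and 0.54 (limma, adjusted p = 0.0121). No gene of the 7 lists passed between knockdown and control oligo. These falls are relative to the scaled libraries: in unscaled TPM 40 of the 67 genes rose and 4 fell with control oligo, and 43 rose and 3 fell in knockdown, where 52.6% and 52.7% of all genes rose and 12.8% and 12.5% fell.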

How the data were processed

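The deposited tables hold, for each transcript, coverage per base, FPKM and TPM, per the file headers made by the authors with StringTie 1.3.4d (options -e and -B, no strand option). Reads were aligned with HISAT2 2.0 to GRCm38/mm10, per the submitters' processing notes. Control oligo and knockdown libraries were poly(A) selected with a stranded kit, per the labels' protocols; the kit of the sham libraries is not given in the sources used here.

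TPM was summed over the transcripts of a gene ID and divided by the library's median ratio to the geometric mean library (16344 genes). Genes with a TPM of at least 1 in at least 3 of 9 libraries were kept (17080). For each comparison, the 6 libraries concerned were modelled alone on log2(scaled TPM + 1), a pseudocount of 1, by limma-trend (R 4.3.3, limma 3.58.1), with Benjamini-Hochberg adjustment over all genes kept and a threshold of 0.05; the fit was tested on simulated data. Errors of log2 changes are standard errors. Counts of reads are not used here, so no count test was run, and p-values measure the spread between these libraries. Same-numbered libraries did not deviate together (r = -0.084 to 0.224), so numbers were not used as pairs. Last against first exon coverage came from the longest annotated multi-exon transcript, expressed or not, with 1 added to each coverage. Aligned bases came from coverage times length.

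Members and lists were chosen with earlier results of these data known. All 31 genes are named, with full values for those called with groups that do not overlap, each regulator and each transport gene; from each other list, up to 4 genes with the smallest p per comparison could be named. Exon overlaps come from GENCODE M21. Alternatives were unscaled TPM, TPM over nuclear protein-coding genes, scaled FPKM, a pseudocount of 0.1, no filter or one at 5 TPM, all 9 libraries together, a replicate block, no trend, and leaving out each library; unscaled TPM and leaving out knockdown 4 were added for the other lists after the data were seen. Sets were described by counts and medians only. Parsing and plots used Python 3.11.15, pandas 2.3.3, numpy 2.4.6 and matplotlib 3.10.9.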

Additional observations from a re-analysis of the deposited data

How the results depend on the processing

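In both comparisons with sham, the scaling moved the count of higher members and the medians further than leaving out any library. With deposited TPM, 25 members were higher and 0 lower in both comparisons with sham. Of all genes, 52.6% rose and 12.8% fell with control oligo in that setting, and 52.7% and 12.5% in knockdown. The synthesis median was 0.998 (control oligo) and 1.06 (knockdown), and the transport median 0.64 and 0.74. Members that changed sign in that setting and passed in 1 of the 2 settings were, in control oligo, Hmgcs1 (0.65), Hsd17b7 (0.18), Sc5d (0.57), Scap (0.46) and Npc1 (0.50), and in knockdown Hmgcs1 (0.65), Tm7sf2 (0.21), Hsd17b7 (0.40), Scap (0.44), Abcg1 (0.30) and Npc1 (0.63). Others changed sign without passing in either: Tm7sf2 (0.46), Srebf1 (0.21) and Abca1 (0.18) in control oligo, Srebf1 (0.18) and Abca1 (0.42) in knockdown, and Hmgcs1, Pmvk and Sqle between knockdown and control oligo, from -0.05, -0.04 and -0.05 to 0.003, 0.01 and 0.003. TPM over nuclear protein-coding genes gave 5 lower members in each comparison with sham and a transport median of -0.12 in control oligo. The share of all genes called lower with that TPM is not given here, so the count is not read further. The causes beyond the scaling itself were not tested. Leaving out 1 replicate at a time gave 8 to 11 higher and 2 to 4 lower members in control oligo against sham. In those settings 20.2 to 26.2% of all genes rose and 24.4 to 29.5% fell. In knockdown against sham the counts were 5 to 13 higher and 0 to 7 lower. There 16.0 to 28.0% of all genes rose and 22.1 to 30.6% fell. In knockdown against control oligo the count was 0, where at most 0.0117% of all genes rose and 0.00585% fell. The synthesis medians ranged over 0.29 to 0.46, 0.23 to 0.45 and -0.15 to 0.14, and the transport medians over -0.07 to 0.09, -0.005 to 0.17 and -0.12 to 0.28. Between knockdown and control oligo, leaving out knockdown 4 moved the 2 medians further (0.14 and -0.12) than deposited TPM did (0.003 and 0.17). With the replicate block, 10 members were higher and 3 lower in control oligo, 11 and 3 in knockdown against sham, and 0 in knockdown against control oligo. The shares of all genes with the block are not given here, and the numbers did not pair the libraries. With 3 libraries a group, the 95% interval of a single member between knockdown and control oligo could reach from -1.41 to 1.79 (Abca1). The data are compatible with any difference inside such an interval.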
